A study of Mus musculus with 4 samples.

Results

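The proteasome subunit genes are the rows of the deposited expression table whose symbol is Psm followed by one of the letters a to g and a number. The rule found 48 genes of the 35147 in the table: 8 Psma, 11 Psmb, 6 Psmc, 14 Psmd, 4 Psme, 1 Psmf and 4 Psmg genes. RNA was immunoprecipitated with an antibody against the protein 4E-T from the V-SVZ (ventricular-subventricular zone) of CD1 mice, wild type and 7 or 8 days old, and sequenced. RNA brought down by a control IgG from the same tissue, strain, genotype and age gave the background. The V-SVZ is the neural stem cell niche along the lateral ventricles, and 4E-T, the product of Eif4enif1, binds the cap-binding protein eIF4E and sits in P-bodies, cytoplasmic granules that hold repressed mRNA. Each antibody had 2 libraries, which the titles assign to experiments 1 and 2. The labels do not say how many animals were pooled or whether litters differed; the p-values thus reflect only how these libraries spread, and that spread may be technical.

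The proteasome degrades proteins tagged with ubiquitin. Its barrel-shaped core has outer rings of alpha subunits (Psma) and inner rings of beta subunits (Psmb), and the inner rings carry the proteolytic sites. A regulatory particle caps the core: a ring of ATPases (Psmc) unfolds the substrate, non-ATPase base subunits (part of the Psmd genes) bind ubiquitin chains, and a lid (other Psmd genes) removes the chain. Other caps, the activators (Psme), open the core without ATP, Psmf1 was described as an inhibitor, and the Psmg genes encode chaperones that assemble the core. Its constitutive subunits are expressed in nearly every cell type.

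Proteasome genes are known to be induced together by the transcription factor Nrf1 (the product of Nfe2l1) through antioxidant response elements. The letters TGACNNNGC, the core of that element, were searched on both strands in RefSeq promoter windows of 300 bases (250 before and 50 after the start; GRCm38.p6, the patched form of mm10). Of the 40 members with a window, 6 held the letters (15.0%), beside 3781 of 27025 genes (14.0%), so the share among the members was near the background; 8 members had no window. Because they show what the search found in catalytic core genes and in Psmc, Psmd and Psme genes, the 6 matches are printed 5′ to 3′ along the gene with the matched letters in capitals.
Psmb5, chr14:54618022-54618054, minus strand: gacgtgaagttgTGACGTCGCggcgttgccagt
Psmb6, chr11:70525336-70525368, plus strand: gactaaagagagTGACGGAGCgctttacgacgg
Psmc6, chr14:45329585-45329617, plus strand: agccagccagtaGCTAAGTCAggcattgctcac
Psmd12, chr11:107479278-107479301, plus strand: tctGCTGTGTCAcatttgcccccc
Psmd9, chr5:123228147-123228179, plus strand: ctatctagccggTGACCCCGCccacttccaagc
Psme4, chr11:30771756-30771788, plus strand: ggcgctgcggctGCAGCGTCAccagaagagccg
In Psmc6, Psmd12 and Psme4 the match lies on the opposite strand. Immunoprecipitated RNA does not report on promoters, and a match is a description of the letters, not of binding.

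The libraries held between 14421019 (IgG replicate 1) and 28749439 (4E-T replicate 2) reads in genes. All 12 fixed markers of V-SVZ cells were detected in every library, as were most genes. Even in 4E-T replicate 2, which had the most genes at 0 reads, these were 2689 of 35147. Detection thus does not set the markers apart. IgG replicate 2 correlated most with 4E-T replicate 2 of the same experiment (Pearson's r across genes 0.947). Its correlation was 0.926 with 4E-T replicate 1 and 0.922 with IgG replicate 1. The authors' FPKM (fragments per kilobase, scaled by library) are not on one scale across libraries: gene reads per unit of the authors' denominator were 1.43 to 1.84 times as high in the other libraries as in IgG replicate 1. On the deposited scale the median log2 fold change of all 17651 tested genes was 0.18, and it was -0.09 once every library was brought to the same number of gene reads (equal gene reads). Medians of gene groups are therefore given relative to the median of all genes, and ratios within a library. Log2 fold changes of single genes are not corrected for that median. On the deposited scale it lay between 0.00 (without IgG replicate 1) and 0.46 (without IgG replicate 2) as libraries were left out. Single-gene values on that scale with a library left out include this shift. Levels called FPKM at equal gene reads carry that rescaling, which was chosen after seeing the data.

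Of the 48 genes, 45 had a mean FPKM of at least 1 and were tested; Psma8, Psmb9 and Psmb11 were below. In the fit with antibody as the only term (limma on log2(FPKM + 1), Benjamini-Hochberg adjusted p under 0.05 over all tested genes), 0 of 45 passed in either direction. At an unadjusted p under 0.05, 1 gene, Psmc4, was higher in 4E-T and 0 were lower. Over all genes that fit called 0.00567% higher and 0% lower, and 11.2% were higher and 1.78% lower at the unadjusted threshold. Libraries of the same experiment deviated together, and with the experiment number as a block 7 members passed as higher in 4E-T and 0 as lower, beside 17.5% and 4.44% of all genes. The 7 were Psma7, Psmc1, Psmc4, Psmd1, Psmd4, Psmd7 and Psme1. At equal gene reads with the block, 4 passed as higher (Psmc1, Psmc4, Psmd4 and Psmd7) and 4 as lower (Psma2, Psmb2, Psmb5 and Psmb7), beside 9.87% and 6.27% of all genes. Without the block at equal gene reads 0 passed, with 4 higher and 3 lower at the unadjusted threshold (9.34% and 5.44% of all genes). The share of members called with the block was 7 of 45 on the deposited scale and 4 of 45 in each direction at equal gene reads, near that of all genes. Leaving out IgG replicate 2, which resembled the 4E-T libraries, 7 members passed as higher and 0 as lower without a block (13.8% and 6.20% of all genes). That fit leaves IgG replicate 1 alone in its group, so no conclusion is drawn from its counts. IgG replicate 2 resembled mainly 4E-T replicate 2 of its own experiment (r = 0.947). Its r was 0.926 with 4E-T replicate 1 and 0.922 with IgG replicate 1. Without IgG replicate 2 the median of the members was 0.66 on the deposited scale, where that of all genes was 0.46. At equal gene reads these medians were -0.03 and -0.13. Psmc1, Psmc4, Psmd4 and Psmd7 passed as higher in all 4 blocked fits that were run (deposited FPKM, quantile-normalised FPKM, recovered reads and equal gene reads). The quantile-normalised fit called 6 members higher and 4 lower (10.4% and 9.23% of all genes), and the fit on recovered reads 4 and 2 (13.6% and 11.0%). Psmb5 and Psmb7 passed as lower in the 3 of them that rescaled the libraries and not on the deposited FPKM.

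**Figure D1:**
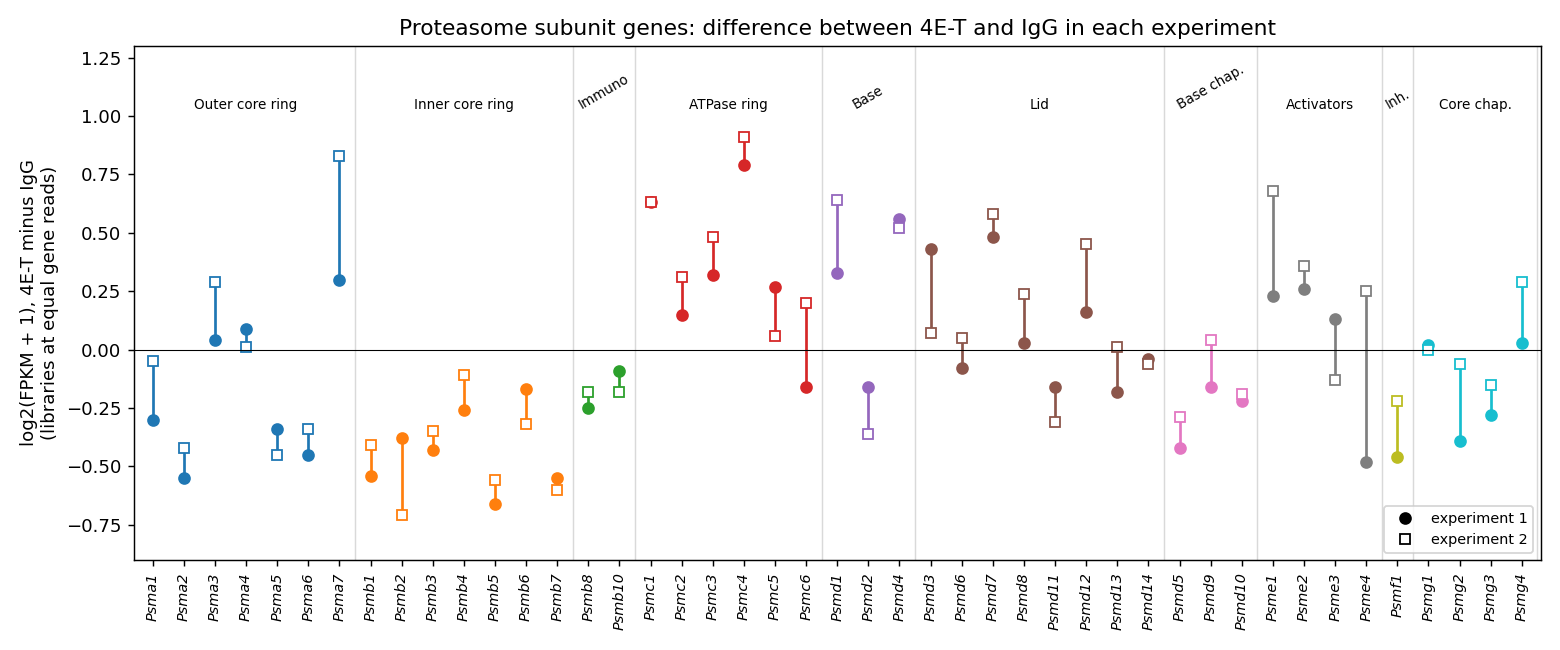
Difference of 4E-T from IgG in log2(FPKM + 1) at equal gene reads for the 45 tested proteasome genes, ordered by their place in the complex; filled circles are experiment 1, open squares experiment 2, and each line joins the 2 experiments of a gene. Inner core ring genes lie below 0 in both experiments, while Psmc1 and Psmc4 of the ATPase ring lie highest among genes whose experiments are close together.

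The layers of the complex lay on different sides of the median of all genes. The 6 ATPase genes had a median log2 fold change of 0.63, which is 0.45 above the median of all genes, and 6 of 6 lay above that median. The 7 constitutive inner ring genes had a median of -0.15, which is 0.33 below it, and 0 of 7 lay above it. The outer ring (7 genes) stood at -0.04 relative to all genes, the lid (8 genes) at 0.20, the 3 non-ATPase base genes at 0.63, the 4 activator genes at 0.29 and the 4 core chaperone genes at 0.02. The median over all 45 tested members was 0.06 above that of all genes, so the whole set lay close to the background while its layers spread around it. These medians describe the genes and were not tested, since genes of a complex are not replicates.

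The inner ring of the core carries the proteolytic activity. Psmb5, the chymotrypsin-like subunit (ENSMUSG00000022193.7, chromosome 14, 54614120 to 54617995 in RefSeq's GRCm38.p6), had 50.2 and 52.4 FPKM with IgG and 31.4 and 35.1 with 4E-T at equal gene reads. Both 4E-T libraries were lower than both IgG libraries. The log2 fold change was -0.61 at equal gene reads (SE 0.14, adjusted p = 0.0215 with the block). On the deposited scale the values were 33.82 and 58.90 with IgG and 30.32 and 43.51 with 4E-T, the groups overlapped, and the change was -0.29 (adjusted p = 0.896 without and 0.558 with the block). Psmb7, the trypsin-like subunit (chromosome 2, 38588046 to 38643952), went from 21.4 and 20.1 with IgG to 14.3 and 13.0 with 4E-T at equal gene reads, a log2 fold change of -0.57 (SE 0.15, adjusted p = 0.0315 with the block). The groups of Psmb7 did not overlap at equal gene reads either, and on the deposited scale its change was -0.26 (adjusted p = 0.885 without and 0.569 with the block). Psmb6, the caspase-like subunit, did not pass: it had 172.0 and 156.8 FPKM with IgG and 152.8 and 125.3 with 4E-T at equal gene reads, a log2 fold change of -0.25 (adjusted p = 0.264 with the block). On the deposited scale the sign of Psmb6 was the opposite (0.08).

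Among the non-catalytic inner ring subunits, Psmb2 passed as lower with the block at equal gene reads (144.5 and 193.1 FPKM with IgG, 111.0 and 117.6 with 4E-T; log2 fold change -0.54, adjusted p = 0.0422). Without IgG replicate 2 the change of Psmb2 at equal gene reads was -0.34. Psmb1 (155.2, 172.6, 106.6 and 130.1 in the same order) narrowly missed, with -0.47 and an adjusted p of 0.0545. Psmb3 and Psmb4 had adjusted p of 0.0872 and 0.383 with the block at equal gene reads. All 9 tested Psmb genes had both IgG libraries above both 4E-T libraries at equal gene reads, where 25.9% of all genes did so. On the deposited FPKM 0 of the 9 did so, where 8.13% of all genes did.

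The outer ring was mixed. Psma2 passed as lower with the block at equal gene reads, where it went from 44.6 and 38.8 FPKM with IgG to 30.2 and 28.8 with 4E-T (log2 fold change -0.48, adjusted p = 0.0498). Psma5 and Psma6 had log2 fold changes of -0.40 and -0.39 there and missed the threshold (adjusted p = 0.0845 and 0.0881). Psma7 moved the other way: its deposited FPKM were 81.34 and 175.75 with IgG and 144.15 and 345.14 with 4E-T. The groups overlapped, because IgG replicate 2 exceeded 4E-T replicate 1, but within each experiment 4E-T was higher. The log2 fold change of Psma7 was 0.89 (SE 0.61, adjusted p = 0.606 without and 0.0213 with the block). It was 0.27 without 4E-T replicate 2 and 0.34 without IgG replicate 1, and 1.44 without IgG replicate 2 and 1.52 without 4E-T replicate 1, so its size depends on which libraries are used. At equal gene reads with the block Psma7 missed the threshold (0.57, adjusted p = 0.0522).

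**Figure D2:**
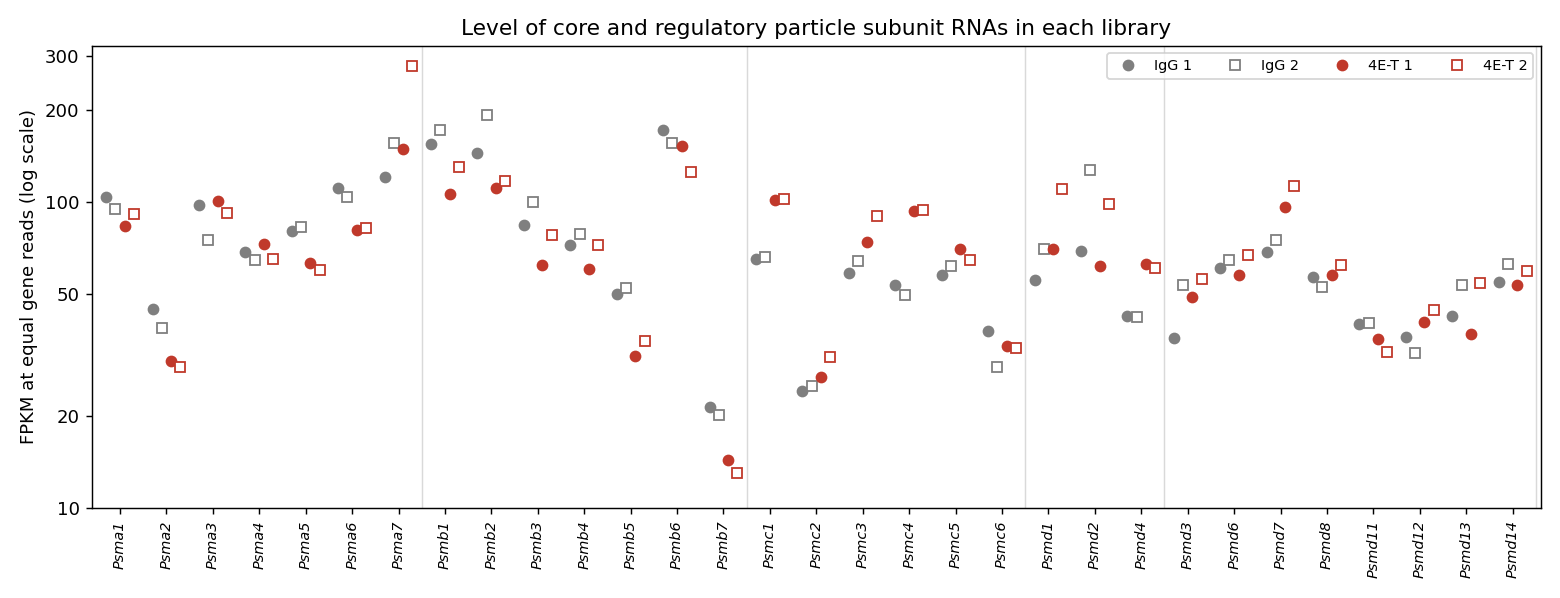
FPKM at equal gene reads (log axis) of the constitutive core, ATPase, base and lid genes in each library; grey is IgG, red is 4E-T, filled circles are replicate 1 and open squares replicate 2. For Psmb5, Psmb7 and Psma2 both red points lie under both grey ones, and for Psmc1, Psmc4, Psmd4 and Psmd7 both lie above.

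The ATPase ring held the member with the largest log2 fold change among the 45 tested. This was Psmc4 (ENSMUSG00000030603.16, chromosome 7, 28041702 to 28050092), an ATPase whose tail docks into the outer ring of the core. It had deposited FPKM of 36.22 and 55.80 with IgG and of 90.21 and 116.71 with 4E-T. Both 4E-T libraries were above both IgG libraries. The log2 fold change was 1.17 (SE 0.48, adjusted p = 0.339 without the block; SE 0.30, adjusted p = 0.00145 with it). At equal gene reads the values were 53.8 and 49.6 against 93.6 and 94.3, so replicates lay close together, and the change was 0.85 (adjusted p = 0.00676 with the block). Psmc1 (ENSMUSG00000021178.9, chromosome 12, 100110202 to 100123364), whose tail helps to open the gate of the core, had 65.4 and 66.2 FPKM with IgG and 101.8 and 102.8 with 4E-T at equal gene reads. Its log2 fold change there was 0.63 (SE 0.14, adjusted p = 0.0187 with the block), and 0.95 on the deposited scale (adjusted p = 0.454 without and 0.0125 with the block). With each library left out in turn, the change at equal gene reads stayed between 0.79 and 0.91 for Psmc4 and between 0.62 and 0.64 for Psmc1. On the deposited scale Psmc1 was 0.58 without IgG replicate 1.

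The other 4 ATPase genes did not pass. Psmc3 came nearest, with 58.9 and 64.3 FPKM with IgG and 74.0 and 89.9 with 4E-T at equal gene reads (log2 fold change 0.40, adjusted p = 0.0837 with the block). Psmc2 stood at 0.23 and Psmc5 at 0.16 at equal gene reads, both with 4E-T above IgG in each library. Psmc6 was at 38.0 and 28.8 with IgG and 33.9 and 33.3 with 4E-T, and its groups overlapped. Thus 5 of 6 ATPase genes had non-overlapping groups upward at equal gene reads, where 22.9% of all genes did, and 0 of 6 downward. On the deposited scale 3 of 6 did so upward (32.6% of all genes).

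Of the base subunits without ATPase activity, Psmd4, a receptor for ubiquitin chains (chromosome 3, 95032688 to 95042614), had 42.3 and 42.2 FPKM with IgG and 62.7 and 61.1 with 4E-T at equal gene reads. The groups did not overlap on either scale. The log2 fold change of Psmd4 was 0.54 at equal gene reads (adjusted p = 0.0317 with the block). On the deposited scale it was 0.86 (adjusted p = 0.0242 with and 0.485 without the block), and 0.50 without IgG replicate 1. With each library left out in turn, it stayed between 0.52 and 0.56 at equal gene reads. Psmd1, a large scaffold of the base, had 37.44 and 79.12 deposited FPKM with IgG and 67.61 and 136.83 with 4E-T. Its log2 fold change of 0.81 passed with the block (adjusted p = 0.0389; 0.609 without) but was 0.31 without 4E-T replicate 2 and 0.28 without IgG replicate 1. It was 1.34 without IgG replicate 2 and 1.31 without 4E-T replicate 1, and at equal gene reads its adjusted p with the block was 0.055. Psmd2, the other scaffold, which also receives ubiquitin shuttle proteins, was at 46.49 and 142.88 with IgG and 59.52 and 122.54 with 4E-T. The experiments of Psmd2 differed more than the antibodies did.

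In the lid, Psmd7, the inactive partner of the deubiquitinase Psmd14 (chromosome 8, 107580380 to 107588482), had 68.6 and 75.1 FPKM with IgG and 96.3 and 113.0 with 4E-T at equal gene reads. Both 4E-T libraries were higher, and the log2 fold change was 0.53 (adjusted p = 0.034 with the block). On the deposited scale it was 0.86 (adjusted p = 0.538 without and 0.0277 with the block), and 0.43 without IgG replicate 1 and 0.56 without 4E-T replicate 2. Psmd14 itself was at 55.0 and 62.6 with IgG and 53.6 and 59.8 with 4E-T at equal gene reads, with overlapping groups. The ratio of Psmd7 to Psmd14 within a library was 1.25 and 1.20 with IgG and 1.80 and 1.89 with 4E-T. Relative to its dimer partner, Psmd7 was thus higher with 4E-T in both experiments. Psmd7 had passed as higher and Psmd14 was named after its values were seen, so the ratio restates that call. The 6 remaining lid genes did not pass in the fits with the block on the deposited FPKM or at equal gene reads. The 3 base assembly chaperones, Psmd5, Psmd9 and Psmd10, did not pass either. Psmd5 had the lowest log2 fold change of the 3 there (-0.36), with 19.2 and 21.4 FPKM with IgG and 14.1 and 17.3 with 4E-T at equal gene reads (adjusted p = 0.123 with the block).

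Psme1 and Psme2 form the cytoplasmic activator ring. Psme1 had 19.82 and 29.02 deposited FPKM with IgG and 33.40 and 51.78 with 4E-T, and Psme2 had 34.31 and 53.17 with IgG and 59.05 and 75.64 with 4E-T. The groups did not overlap for either gene on either scale. Psme1 passed on the deposited scale with the block (log2 fold change 0.77, adjusted p = 0.0417; 0.526 without the block) and not at equal gene reads (0.45, adjusted p = 0.0865). It was 0.51 without IgG replicate 1 and 0.46 without 4E-T replicate 2. Psme2 did not pass (0.63, adjusted p = 0.121 with the block). Psme3, a nuclear activator, and Psme4, a large single-chain one, did not pass on either scale with the block. Neither did the inhibitor Psmf1 (9.52 and 12.45 with IgG, 9.69 and 11.60 with 4E-T), nor the core chaperones, of which Psmg4 was the highest on the deposited scale (0.48) and Psmg3 the lowest (0.07).

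Levels of the inducible and tissue-restricted core subunits were low, apart from Psmb10. Psmb10 lay near the median of all tested genes, which was 5.54 and 7.49 FPKM with IgG and 7.52 and 8.93 with 4E-T. Psmb8, the immunoproteasome counterpart of Psmb5, was at 1.14 and 1.91 FPKM with IgG and 1.23 and 1.72 with 4E-T. Psmb9, the counterpart of Psmb6, did not exceed 0.94 in any library, and Psmb10, the counterpart of Psmb7, was at 5.53 and 10.18 with IgG and 7.39 and 9.73 with 4E-T. Psmb8 was 0.0324 to 0.0404 times as abundant as Psmb5 within a library, while Psmb10 was 0.383 to 0.605 times as abundant as Psmb7. Psmb11, the thymus form, stayed at or below 0.21, and Psma8, the testis counterpart of Psma7, at or below 1.06. The log2 fold changes of Psmb8 (-0.02) and Psmb10 (0.15) did not pass in the fits with or without the block. Immunoproteasome subunits are most abundant in immune cells. The 10 markers of microglia and the 10 of vascular cells were detected in every library, as were most genes. Summed microglia markers took 0.0725% and 0.0905% of gene reads with IgG and 0.0564% and 0.0510% with 4E-T. Summed vascular markers took 0.0812% and 0.0347% with IgG and 0.0231% and 0.0282% with 4E-T. Both sums were thus lower in the 4E-T libraries, but the vascular sum was highest in IgG replicate 1, and in experiment 2 the level of 4 of the 10 vascular markers was higher with 4E-T than with IgG. The part of these cell types in the values of Psmb8 to Psmb10 was not tested. In pulldowns from bulk tissue, the recovery of an RNA by the antibody, fewer cells of a type and less RNA per cell cannot be told apart.

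A ratio of genes within a library does not depend on the scale of that library. The mean FPKM of the ATPase genes was 0.524 and 0.497 times that of the 14 constitutive core genes with IgG, and 0.833 and 0.764 times with 4E-T (0.51 ± 0.0189 against 0.798 ± 0.0491, mean ± SD, n = 2 each). The ratio was thus 1.59 times higher with 4E-T in experiment 1 and 1.54 times higher in experiment 2. The lid stood at 0.522 and 0.547 with IgG and 0.668 and 0.674 with 4E-T, and the activators at 0.358 and 0.313 against 0.466 and 0.423. For the non-ATPase base genes the higher IgG value lay next to the lower 4E-T value (0.587 and 0.804 with IgG, 0.81 and 0.994 with 4E-T). Within the core, the inner ring was 1.12 and 1.25 times as abundant as the outer ring with IgG and 0.926 and 0.818 times with 4E-T by mean FPKM, where Psma7 alone reached 345.14 in 4E-T replicate 2. By the difference of their median log2(FPKM + 1), the rings stood at -0.22 and 0.27 with IgG and at -0.38 and -0.08 with 4E-T, and the groups overlapped. The same difference for the ATPase genes against the core was -0.69 and -0.67 with IgG and -0.10 and -0.08 with 4E-T, without overlap. Psmc4 over Psmb5, the members with the highest and the lowest log2 fold change on the deposited scale and so bound to differ, stood at 1.07 and 0.947 with IgG and 2.98 and 2.68 with 4E-T. With 2 libraries a group no permutation of such a ratio can pass the threshold, and none was run.

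**Figure D3:**
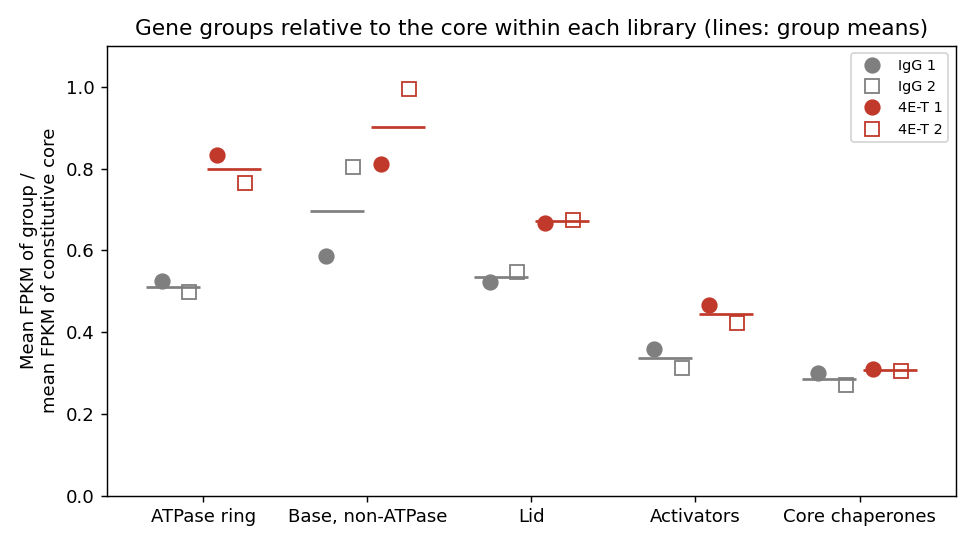
Mean FPKM of each gene group divided by the mean FPKM of the 14 constitutive core genes, within each library; grey is IgG, red is 4E-T, filled circles are replicate 1, open squares replicate 2, and lines are the means of the 2 libraries. ATPase genes sit at 0.497 to 0.524 with IgG and 0.764 to 0.833 with 4E-T, while core chaperones stay between 0.27 and 0.31.

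As a share of all gene reads the whole set overlapped between antibodies: 0.418% and 0.444% with IgG and 0.417% and 0.479% with 4E-T. The constitutive core took 0.176% and 0.178% with IgG and 0.152% and 0.172% with 4E-T. The ATPase genes took 0.0553% (95% Wilson interval 0.0541 to 0.0566) and 0.0545% (0.0536 to 0.0555) with IgG, and 0.0729% (0.0718 to 0.0740) and 0.0766% (0.0756 to 0.0776) with 4E-T. The intervals cover counting error only. The shares show a larger ATPase part beside a core part that was smaller in each experiment. Within the core, the inner ring took 0.0759% and 0.0832% with IgG and 0.058% and 0.062% with 4E-T. The outer ring overlapped between antibodies, with 0.0998% and 0.095% with IgG and 0.0937% and 0.11% with 4E-T.

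In the authors' deposited table, 7 of the 48 genes had an adjusted p under 0.05 and were higher in 4E-T, and 0 were lower, beside 10.7% and 2.61% of all genes with an adjusted p. Of these, the authors' deposited table gives the lowest adjusted p to Psmc4 (0.000423, log2 fold change 1.17, SE 0.27). In the authors' deposited table Psmc3 lay just outside the threshold at 0.0548, and Psmb5 and Psmb7 had log2 fold changes of -0.32 and -0.30 with adjusted p of 0.516 and 0.554.

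The order of the layers was also compared across settings. The ATPase median exceeded the core median by 0.70 on the deposited scale (SD between experiments 0.06), by 0.66 after quantile normalisation and by 0.71 on the recovered reads and at equal gene reads. With each library left out in turn it lay between 0.62 and 0.79. Relative to all genes on the deposited scale, the ATPase median was lowest without IgG replicate 1 (0.23) and the inner ring median was -0.10 without IgG replicate 2. With no filter on low genes, where the all-gene median is -0.07, the inner ring stood at -0.08, the outer ring at 0.21 and the ATPase ring at 0.70 relative to all genes. The base median was 0.28 without IgG replicate 1 and 0.23 without 4E-T replicate 2. The lid median was -0.09 without IgG replicate 1, so its place above all genes depends on that library.

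**Figure D4:**
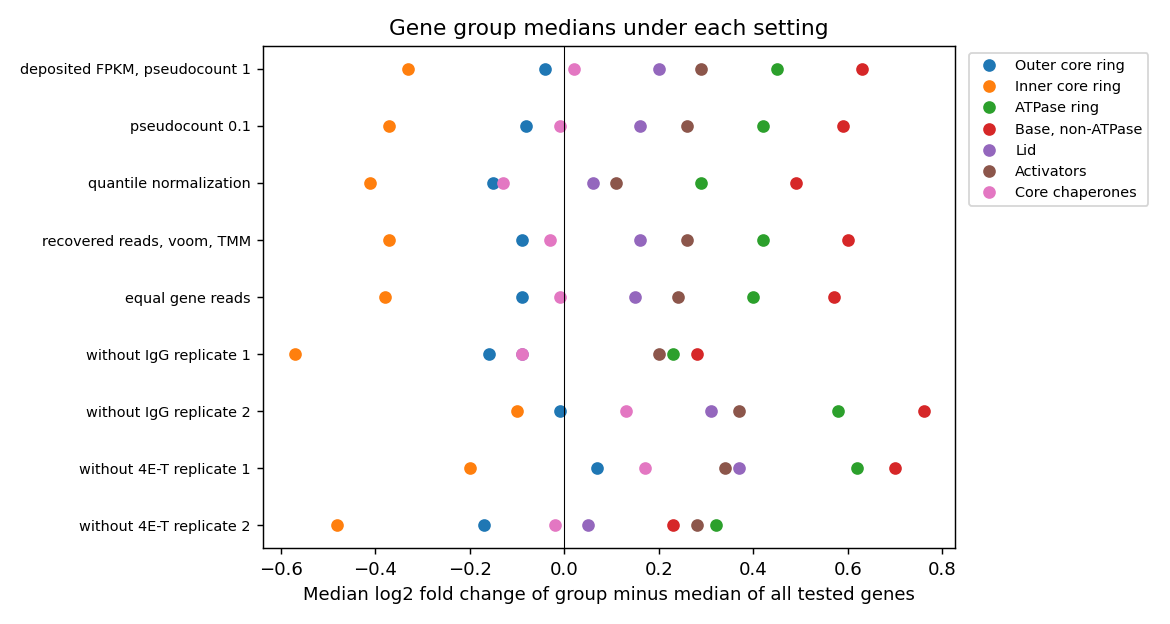
Median log2 fold change of each gene group minus the median of all tested genes (horizontal axis), for 9 settings of scaling, pseudocount and left-out library (rows). ATPase points lie right of 0 and inner core ring points left of 0 in every row shown, while the lid, outer ring and core chaperone points fall on both sides. Without IgG replicate 1 the lid point lies under the core chaperone point.

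Gene length and level were looked at because both run along with the fold change over all genes. Across the 17651 genes Spearman's rho of log2 fold change was 0.23 with relative gene length (from the reads behind each FPKM) and 0.35 with mean FPKM; across the 45 members it was 0.12 and 0.15. Genes are not independent replicates and share libraries, so no p is given. The constitutive inner ring had a median relative length of 0.496, the outer ring 0.593 and the ATPase ring 0.886, beside 1.34 over all genes. Length thus differed between the layers, and its part in their difference was not tested. In total 12 members overlap another RefSeq gene; protein-coding neighbours are Htr2b within Psmd1, Erlec1 at Psme4, Emc9 at Psme1, Atg4a at Psmd10, Tmem74b at Psmf1 and AY074887 at Psma4. Psmb5 holds Mir686 and Psmb7 a pseudogene, and the others overlap a noncoding gene or a pseudogene. Whether counting used strand is unknown from these sources, so reads of such pairs may not be separable.

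The surrounding ubiquitin system was covered by 3 lists of genes. In the block fit on the deposited FPKM, 8 of the 59 tested genes passed as higher and 0 as lower (17.5% and 4.44% of all genes); without the block 0 passed in either direction, 2 being higher and 0 lower at the unadjusted threshold. Ubiquitin supply and delivery genes held 6 of the 8, out of 16. Among them were Ubb, a ubiquitin gene, at a log2 fold change of 0.81, and the VCP cofactors Nsfl1c, Ufd1 and Faf1 at 1.09, 0.90 and 0.73. Nsfl1c had 30.08 and 40.11 deposited FPKM with IgG and 72.24 and 77.84 with 4E-T, and both 4E-T libraries were above both IgG libraries. Without IgG replicate 1 Ubb was 0.41 and Faf1 0.47, and without 4E-T replicate 2 they were 0.40 and 0.43; without 4E-T replicate 1 Ubb was 1.23. At equal gene reads with the block Ufd1 (0.58) and Nsfl1c (0.77) passed, and Ubb and Faf1 did not.

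Among the 28 tested conjugating enzymes (E2), Ube2o (1.06) and Ube2q1 (0.91) passed as higher with the block on the deposited FPKM and 0 as lower (17.5% and 4.44% of all genes). Without IgG replicate 1 these were 0.44 and 0.38, and without IgG replicate 2 they were 1.68 and 1.44; Ube2q1 was 0.60 without 4E-T replicate 2. At equal gene reads with the block both passed as higher, and Ube2g2 (-0.71, adjusted p = 0.0149) and Ube2k (-0.55, adjusted p = 0.0409) passed as lower (9.87% and 6.27% of all genes). Ube2g2 and Ube2k stood at -0.39 and -0.24 on the deposited scale and did not pass there. After quantile normalisation with the block 2 E2 genes were called higher and 8 lower (10.4% and 9.23% of all genes). The list of 15 other assembly factors and regulators also holds Adrm1 and Sem1. These are subunits that the symbol rule leaves out of the base and lid groups. Of the 15, 0 passed in either direction with the block on the deposited FPKM (17.5% and 4.44% of all genes). At equal gene reads with the block 0 of the 15 passed as higher and 1 as lower (9.87% and 6.27% of all genes). This was Pomp, the chaperone that matures the core. It went from 21.7 and 21.0 FPKM with IgG to 15.4 and 14.0 with 4E-T (log2 fold change -0.51, adjusted p = 0.045).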

How the data were processed

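Per the submitters' processing notes, STAR 2.6.0c, HTSeq 0.6.1p2, DESeq2 1.26.0, Trim Galore 0.5.0 and FastQC 0.11.5 were used with mouse build mm10, with annotation release and strand setting not given in the sources used here. A MAGNA RIP kit gave the RNA, per the labels' protocols, and SMART-Seq v4 and Nextera XT kits the libraries. The deposited table holds FPKM per library. The authors' comparison of 4E-T with IgG stands beside it, per the file headers: mean normalized signal, log2 fold change, its standard error and Wald statistic (both entered as scores), raw and adjusted p-value, and fold ratio.

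From FPKM and mean signal the reads behind each value were solved (100% whole within 0.01), which gave depth and relative gene length. Genes with mean FPKM of at least 1 entered limma 3.58.1 (R 4.3.3) as log2(FPKM + 1), with trend and robust moderation, two-sided, adjusted over all tested genes; this scale understates changes of low genes. The scripts were run on libraries simulated from 1 mean profile with set changes and an experiment effect, which checks the code and not the calls made here. The experiment number in the titles was read as shared, since libraries of one experiment deviated together (correlation across genes 0.67), so blocked values stand beside results whose call they change; the block leaves 1 residual degree of freedom, and the spread is shared across genes. FPKM at equal gene reads divide each library by its gene reads per denominator.

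Genes were named where they passed with or without the block or were the highest or lowest of their family. Restricted core subunits and their partners were also named, and Adrm1 and Sem1 as subunits outside the symbol rule. Psma5, Psma6, Psmb1, Psmb2, Psmb3, Psmc2, Psmc3, Psmc5, Psmd2, Psmd14, Psme2, Pomp, Ube2g2 and Ube2k were named after their values were seen. Members and lists were chosen with earlier results of these data known. Alternatives were pseudocount 0.1, no filter, quantile normalization, limma-voom with TMM on recovered reads, equal gene reads and leaving out each library. Promoter sequences are from RefSeq. Some genes of the ubiquitin lists that passed are counted but not reported by name here.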

Additional observations from a re-analysis of the deposited data

How the results depend on the processing

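Fits of all 4 libraries without the replicate block called 0 proteasome genes in either direction under every pseudocount, filter and scaling tried. With the replicate block, 7 were higher on the deposited FPKM, 7 with a pseudocount of 0.1 and 4 with no filter. There were 6 higher after quantile normalization, 4 on recovered reads and 4 at equal gene reads, and 4, 2 and 4 lower in these last 3. Of all genes, 17.5% were higher on the deposited FPKM. In the last 3 fits 10.4%, 13.6% and 9.87% were higher and 9.23%, 11.0% and 6.27% lower. Shares for pseudocount 0.1 and no filter are not given, so those counts have no background beside them. No conclusion is drawn from counts of calls with a library left out, since 1 library then stands for its group. Among such fits, the count of proteasome genes is given in the Results only for the fit without IgG replicate 2. Ubiquitin pathway genes numbered 8, 8, 6, 7, 6 and 6 higher with the block, and 13, 3 and 3 lower in the last 3; with a library left out, 0 to 5 were higher and 0 to 1 lower. The median of the proteasome genes was 0.25, but -0.08 after quantile normalization, -0.02 on recovered reads and -0.06 at equal gene reads, and -0.10 to 0.66 with a library left out; the ATPase minus core difference stayed between 0.62 and 0.79. Of the 45 tested members, 14 changed sign at equal gene reads, 18 after quantile normalization and 12 on recovered reads, with or without the block; the cause was not tested. Among the genes chosen for naming, those at equal gene reads were Psmb10 (-0.14), Psme4 (-0.11), Psmg3 (-0.21), Psmb6 (-0.25), Psmd2 (-0.26) and Psmd14 (-0.05). After quantile normalization they were Psmb10 (-0.14), Psmc6 (-0.07), Psme4 (-0.20), Psmg3 (-0.23), Psmb8 (0.05), Psmb6 (-0.21), Psmd2 (-0.25) and Psmd14 (-0.07). On recovered reads they were Psmb10 (-0.13), Psme4 (-0.09, -0.08 with the block), Psmg3 (-0.19, -0.20), Psmb6 (-0.19, -0.20) and Psmd2 (-0.18, -0.19). With a library left out, signs of the genes chosen for naming turned within these ranges: Ube2g2 -0.95 to 0.16, Ube2k -0.67 to 0.06, Pomp -0.58 to 0.12, Psma2 -0.58 to 0.10, Psma5 -0.46 to 0.31, Psma6 -0.44 to 0.25, Psmb1 -0.61 to 0.30, Psmb2 -0.79 to 0.36, Psmb3 -0.55 to 0.42, Psmb5 -0.69 to 0.10, Psmb6 -0.39 to 0.38, Psmb7 -0.64 to 0.05, Psmb8 -0.25 to 0.20, Psmb10 -0.24 to 0.54, Psmc6 -0.17 to 0.51, Psmd2 -0.73 to 0.86, Psmd5 -0.50 to 0.37, Psmd14 -0.18 to 0.73, Psme4 -0.34 to 0.51, Psmf1 -0.50 to 0.14 and Psmg3 -0.41 to 0.20. The ranges of these genes pool the deposited scale and equal gene reads. At equal gene reads alone, only Psmc6, Psmd2, Psmd14 and Psme4 of them took both signs as libraries were left out. On the deposited scale without IgG replicate 2, the median of all genes was itself 0.46. A quasi-likelihood count test fixed as an alternative was not run, because the deposited unit is FPKM. A library left out leaves its group with 1 library, assumed to vary like the other group.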

Other observations

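Besides the 48 genes, the table lists a paralog of Psme2 and pseudogenes of Psmb5 and Psmb6, which share sequence with them. Psme2b had 29 and 35 reads with IgG and 108 and 79 with 4E-T. Psmb5-ps had 46 and 11 with IgG and 4 and 8 with 4E-T, Psmb6-ps 22 and 20 with IgG and 9 and 10 with 4E-T, and Psmb6-ps2 16 and 10 with IgG and 2 and 3 with 4E-T. How reads were divided between these copies and their parent genes is not recorded, and the values of both are uncertain to that extent.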
